A study of Arabidopsis thaliana with 5 samples.

Results

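WRKY and NAC proteins are plant transcription factors, and they were followed here in *Arabidopsis thaliana* roots on Affymetrix ATH1 arrays through 7 genes, each read by 1 probe set, of the 13356 genes that the annotation names singly among 22810 probe sets. A probe set is a group of probes that reads 1 transcript or a few similar ones. The members are all probe sets whose single gene symbol in the platform annotation is WRKY or NAC (or ANAC) followed by a number, a rule that uses no measured value. It gave 6 WRKY genes (WRKY6, WRKY20, WRKY22, WRKY42, WRKY47 and WRKY53) and 1 NAC gene (NAC014). The RefSeq gene table lists 72 genes with a numbered WRKY symbol or synonym and 100 with a numbered NAC one, so both families are seen here through a small part of their genes. Probe sets with several symbols held 0 WRKY and 0 NAC symbols.

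All samples came from Columbia seedlings, the common laboratory accession, grown for 5 days at pH 5.7 and then kept for 24 h on medium at pH 4.6. In the group of sorted protoplasts (3 samples), root cells had been freed from their walls and passed through a fluorescence-activated cell sorter, and each sample was made from RNA of about 50000 cells. In the group of whole roots (2 samples), RNA was taken from intact roots and 1 µg of total RNA was labelled. No sample kept at pH 5.7 was analysed here, so the comparison is between 2 preparations of acid-treated root and not between pH values. The sources used here do not give the gate of the sorter, nor whether replicates were grown as separate cultures. A p-value therefore covers only the variation among these samples, and that variation may be technical.

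WRKY factors bind W-box elements in promoters through the WRKY domain, a DNA-binding fold held by a zinc ion, and many of their genes are themselves switched on within minutes to hours by pathogens, wounding or oxidative stress. They are sorted into group I (a pair of WRKY domains), group II with its subgroups a to e, and group III (a different zinc-binding pattern). NAC factors share an N-terminal NAC domain and are known in roots for the root cap, the xylem and responses to stress, and some are held at membranes until they are cut free. Of the members, WRKY20 belongs to group I, WRKY6, WRKY42 and WRKY47 to subgroup IIb, WRKY22 to subgroup IIe and WRKY53 to group III. Their genes are spread over chromosome 4 (5 members) and chromosome 1 (WRKY6 and NAC014).

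The signals were deposited on a linear scale, already scaled by the authors so that the mean of each array, after trimming 2% at each end, was 250.02. Arrays hold no counts, and the number of arrays limits the precision. Across probe sets, log2 signals correlated at r between 0.944 and 0.956 among sorted samples, at 0.938 between the whole-root samples and at 0.846 to 0.853 between the groups. The ratio of the 3′ to the 5′ control signal of actin, which rises when transcripts are read mostly near their 3′ end, was 19.8 to 29.3 in sorted protoplasts and 3.08 to 3.29 in whole roots. The same ratio was 1.33 to 1.51 against 1.05 to 1.15 for GAPDH and 2.57 to 2.90 against 1.10 to 1.52 for ubiquitin. Each sorted sample thus differed from each whole-root sample in preparation, RNA input and 3′ bias at once, and these cannot be told apart from the group. Of 25 markers of root cell types and of green tissue, the annotation named 4, so the root label could be checked on few genes. The root hair expansin EXPA7 had 43.4 ± 21.5 (SD, n = 3) after sorting against 68.5 ± 1.16 (SD, n = 2) in whole roots (log2 fold change -0.79, limma adjusted p = 0.140). It passed as lower with the replicate block (-1.15, adjusted p = 0.0295) and without sorted replicate 3 (adjusted p = 0.0340). These settings give the same fold change, because only the sorted group has a replicate 3. The geometric mean of EXPA7 after sorting, 39.7, lay under the bound of the filter described below (43.3). The filter left out both cortex markers, of which AT1G09750 was higher in sorted protoplasts when no filter was used (1.81, adjusted p = 0.0111). RCA, Rubisco activase of green tissue, was 9.98-fold lower in sorted protoplasts (45.5 ± 6.54, SD, n = 3, against 455 ± 87.8, SD, n = 2; limma adjusted p = 2.49e-05). The sorted RCA signals of 38.3, 51.1 and 47.1 lay near the filter bound (43.3), so the size of that fold is imprecise. The part of these 4 marker genes in the results below was not tested. In such bulk samples, fewer cells of a type and less RNA per cell cannot be told apart.

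In sorted protoplasts WRKY53 was 7.71-fold and WRKY22 2.45-fold higher than in whole roots, and WRKY47 was 5.08-fold lower. WRKY6 and WRKY20 did not pass the test, and WRKY42 was dim in both groups. The comparison asks how far transcripts differ between the 2 preparations, which also differed in RNA input and 3′ bias. It was tested with limma on log2 signals over the 13647 probe sets left after removing the 40% with the lowest mean, and a probe set was called where its Benjamini-Hochberg adjusted p was under 0.05. Thus 5 of the 6 WRKY probe sets were tested, of which 2 were higher, 1 lower and 2 not past the threshold. Among all tested probe sets 60.6% passed, 34.1% higher and 26.5% lower, so 3 of 5 is close to the background share and says nothing particular about the family. The groups did not overlap at 3 of the 5, against 75.8% of all tested probe sets. The median log2 fold change was 0.22 over the 5 tested WRKY probe sets and 0.15 over all tested probe sets. Without the filter the 6 WRKY probe sets had 2 called higher and 2 lower, with a median of 0.17 against -0.02 over all probe sets. Of all probe sets 40.6% were then called, 20.9% higher and 19.7% lower, and the groups did not overlap at 61.8%, against 4 of the 6 WRKY probe sets.

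**Figure D1:**
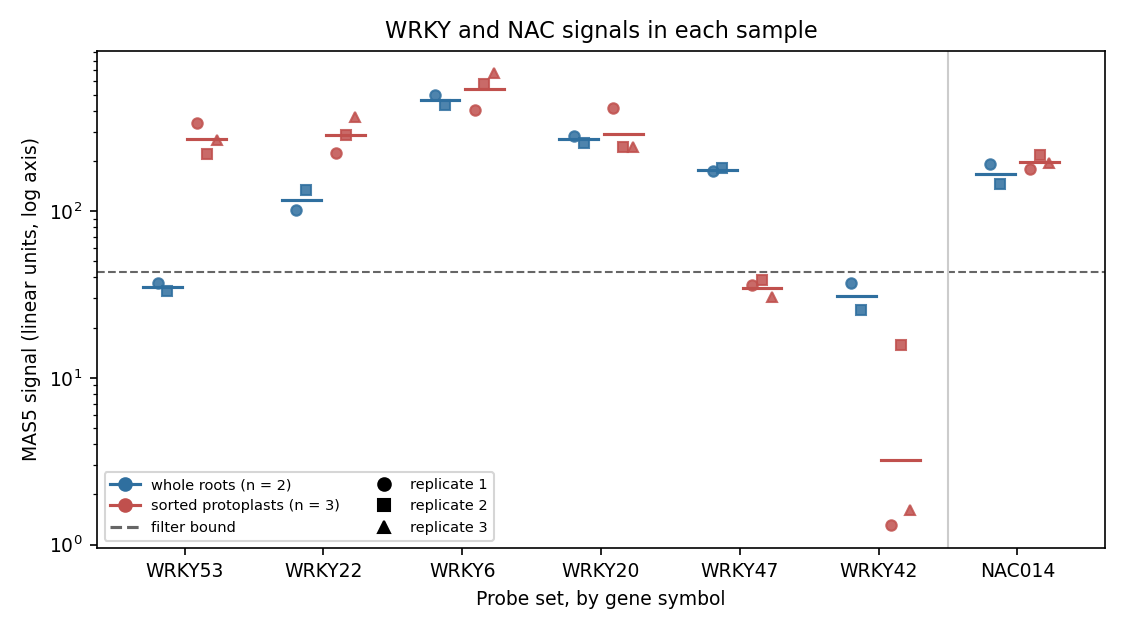
MAS5 signal of each of the 7 probe sets (linear units on a log axis) in the whole-root samples (blue, n = 2) and the sorted protoplasts (red, n = 3). Symbols mark the replicate, short lines the geometric mean of a group, and the dashed line the filter bound of 43.3. WRKY53 and WRKY22 lie higher in every sorted sample, WRKY47 and WRKY42 lie lower in every sorted sample, and the other 3 overlap.

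WRKY53, of group III, is known as a regulator of leaf senescence and of defence whose transcript responds to hydrogen peroxide. Its signal was 337, 221 and 266 in sorted replicates 1, 2 and 3, and 37.0 and 33.3 in whole-root replicates 1 and 2. Every sorted sample lay several-fold above both whole-root samples. The log2 fold change was 2.95 (SE 0.230, limma adjusted p = 4.41e-05), with a 95% interval of the fold from 5.33 to 11.2. Taking each sorted sample against each whole-root sample, WRKY53 was higher in 6 of 6 pairs, where the log2 difference ran from 2.58 to 3.34, and 99.2% of tested probe sets had a lower log2 fold change. In whole roots both signals were under the filter bound (43.3), which makes the size of the fold imprecise. Set against that bound, the sorted signal was 6.25-fold higher.

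WRKY22, of subgroup IIe, is known to act downstream of a mitogen-activated protein kinase cascade that responds to bacterial flagellin. It had signals of 222, 285 and 369 in sorted replicates 1 to 3 and of 102 and 134 in the whole-root replicates. Both groups were above the filter bound and did not overlap. The log2 fold change was 1.29 (SE 0.248, limma adjusted p = 0.00277), with a 95% interval of the fold from 1.64 to 3.65. It was higher in 6 of 6 pairs, with log2 differences between 0.73 and 1.86. Tested against a change of 1 on the log2 scale in place of 0, WRKY22 did not pass (adjusted p = 0.549), so a change larger than that was not shown.

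Of the 3 subgroup IIb genes, WRKY42 was not tested, WRKY6 did not pass and WRKY47 was called lower. Of all tested probe sets 60.6% were called and 26.5% were called lower. WRKY47, linked in Arabidopsis to aluminium tolerance through wall-modifying genes, had 35.9, 38.5 and 30.5 in the sorted samples against 173 and 180 in whole roots. The groups were far apart and each was narrow, at 34.9 ± 4.08 (SD, n = 3) and 177 ± 5.14 (SD, n = 2). Its log2 fold change was -2.34 (SE 0.228, limma adjusted p = 1.12e-04), a fall by a factor of 5.08 with a 95% interval from 3.52 to 7.33. It was higher in 0 of 6 pairs, and 4.87% of tested probe sets had a lower log2 fold change. Here the sorted signal lay below the filter bound. Set against that bound, the whole-root signal was 4.07-fold higher.

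WRKY53 and WRKY47 passed the filter only through the group in which they were high. Probe sets with 1 group under the bound are called often for that reason, 81.3% of 1218, and the calls of these 2 genes are to be read beside that share. WRKY22, bright in both groups, does not belong to that class.

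WRKY6, also of subgroup IIb, is known in senescence and as a repressor of the phosphate exporter gene PHO1. Its signal was 404, 581 and 670 in the sorted replicates and 497 and 432 in whole roots. Sorted replicate 1 was the lowest of the 5 samples while the other sorted replicates were the highest, so the groups overlapped. The log2 fold change was 0.22 (SE 0.226, limma adjusted p = 0.422), with a 95% interval of the fold from 0.811 to 1.67. This result rests on sorted replicate 1: without it, WRKY6 was higher in sorted protoplasts (log2 fold change 0.43, adjusted p = 0.0177). With the trend of fold change on gene length removed, the value was -0.07 (adjusted p = 0.822).

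WRKY42, the remaining gene of subgroup IIb, is known to act on phosphate uptake and transport genes together with WRKY6. It had signals of 1.31, 15.7 and 1.61 in sorted protoplasts and of 37.1 and 25.6 in whole roots, all below the filter bound. It is therefore a dim probe set in both groups and was not tested. The sorted values were all under the whole-root values, and they spread over more than a factor of 10 among themselves. Without the filter it passed as lower (adjusted p = 0.0463). No fold is given, because both groups lay under the bound.

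WRKY20, a group I factor, had signals of 417, 242 and 244 in the sorted replicates and of 284 and 256 in whole roots. Sorted replicate 1 stood above the other 4 samples, and the remaining sorted replicates lay below both whole-root samples. The log2 fold change was 0.11 (SE 0.257, limma adjusted p = 0.730), with a 95% interval of the fold from 0.714 to 1.63. Its sign turned when sorted replicate 1 was left out (-0.15, adjusted p = 0.361). It also turned after removal of the length trend (-0.19, adjusted p = 0.571). ZAP1, the gene also numbered WRKY1 and the 1 other WRKY gene that the annotation named, is outside the rule. It is a group I gene as well, at 380 ± 125 (SD, n = 3) against 347 ± 42.2 (SD, n = 2), and did not pass either (log2 fold change 0.09, limma adjusted p = 0.782).

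**Figure D2:**
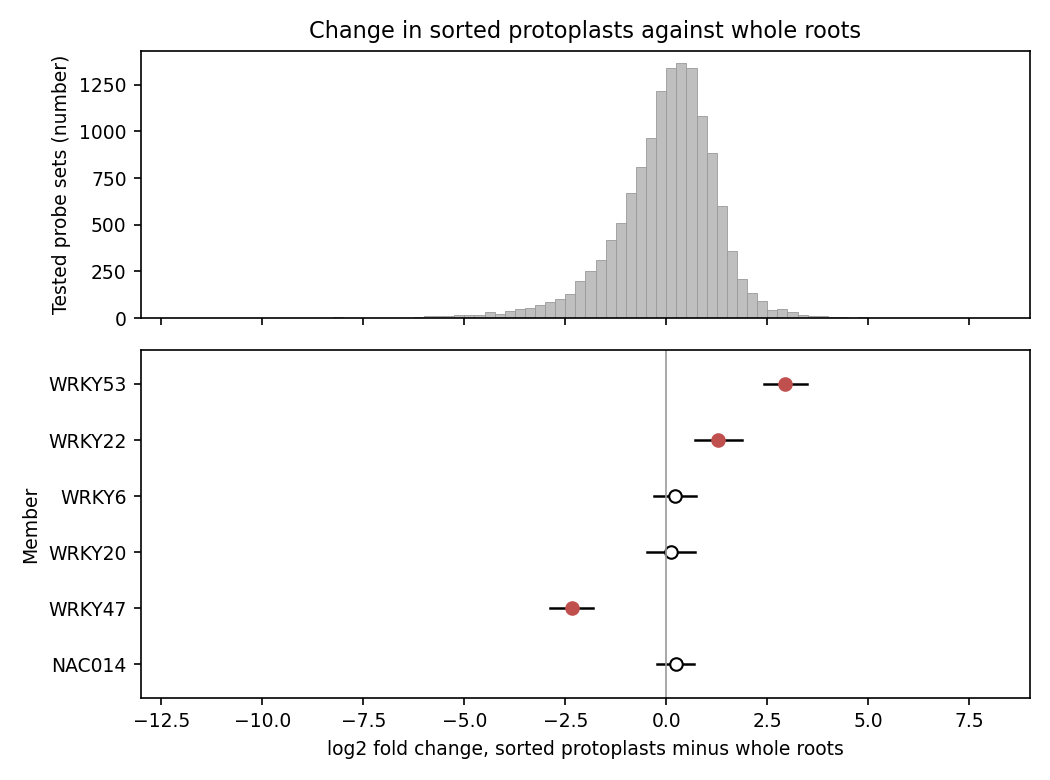
Upper panel: number of tested probe sets (of 13647) by log2 fold change, sorted protoplasts minus whole roots, in steps of 0.25. Lower panel: fitted log2 fold change of the 6 tested members with 95% intervals from limma. Filled points passed adjusted p under 0.05. WRKY53 at 2.95 lies in the upper tail and WRKY47 at -2.34 in the lower tail, while WRKY6, WRKY20 and NAC014 lie near the median of 0.15.

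The NAC family was represented by NAC014 alone, a NAC factor with a predicted membrane anchor. Its signal was 178, 218 and 193 in sorted replicates 1 to 3 and 191 and 146 in whole-root replicates 1 and 2. The groups overlapped, and both were above the filter bound. The log2 fold change was 0.23 (SE 0.195, limma adjusted p = 0.336), with a 95% interval of the fold from 0.858 to 1.60. Sorted samples were higher in 5 of 6 pairs. Of 1 tested NAC probe set 0 passed, against the background of 60.6%, and 1 gene allows no statement on the family. NAC014 had an unadjusted p above 0.05 as well, at 0.274. With median centring of the arrays its log2 fold change was 0.47 (adjusted p = 0.0718). After removal of the length trend it was -0.10 (adjusted p = 0.681). It was 0.42 without whole-root replicate 1 and 0.04 without whole-root replicate 2, so its size rests on the whole-root samples (adjusted p = 0.194 and 0.909). Of 20 further NAC genes listed under their usual other names, such as regulators of the root cap and of xylem vessels, the annotation named 0.

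Median centring moved the median of all tested probe sets from 0.15 to 0.39, which bears on every small change. Relative to the median of 0.15, the log2 changes were 2.80 for WRKY53, 1.14 for WRKY22, 0.07 for WRKY6, -0.04 for WRKY20, -2.49 for WRKY47 and 0.08 for NAC014. Of the called genes, WRKY53 lay above 99.2%, WRKY22 above 89.5% and WRKY47 above 4.87% of tested probe sets. WRKY6, WRKY20 and NAC014 sat close to its middle, with 52.9%, 48.4% and 53.3% of tested probe sets below them.

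Gene length went with fold change over the 7334 of 13647 tested probe sets for which the length trend was removed. The called WRKY genes lay on the other side of that trend. Gene length is not the distance of a probe set from the end of its transcript. What part the bias towards transcript ends has in these calls was not tested. WRKY53 (1613 bp, introns included) and WRKY22 (1720 bp) are short, and genes of their length had fitted log2 changes of -0.38 and -0.29. WRKY47 is longer, at 3751 bp, where the fitted change was 0.34. With the trend removed their log2 changes were 3.33, 1.58 and -2.68, each larger in size than before. WRKY6 (2926 bp), NAC014 (3316 bp) and WRKY20 (4880 bp) went from small positive values to small negative ones, at -0.07, -0.10 and -0.19.

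In ratios between members within an array, a scaling of the whole array cancels. A difference in 3′ bias between the groups need not cancel. A shifted ratio therefore does not show by itself that the transcripts changed unequally. The log2 ratio of WRKY53 to WRKY47 was 3.24, 2.52 and 3.13 in the sorted samples and -2.22 and -2.44 in whole roots. Its mean differed by 5.29 on the log2 scale, a size that is imprecise because WRKY53 in whole roots and WRKY47 in sorted protoplasts lay under the filter bound. The log2 ratio of WRKY53 to WRKY22 was -1.73 ± 0.387 (SD, n = 2) in whole roots and -0.08 ± 0.593 (SD, n = 3) in sorted protoplasts. The size of that difference is imprecise as well, because WRKY53 in whole roots lay under the filter bound. NAC014 and WRKY6 kept nearly the same ratio, at -1.46 ± 0.308 (SD, n = 3) and -1.47 ± 0.126 (SD, n = 2), and their groups overlapped. Of the 15 pairs of tested members, 12 had ratios that did not overlap between the groups. Single probe sets did not overlap at 75.8%, which is a different measure, and the share over other pairs of probe sets was not computed. The pairs also reuse the same genes, so nothing particular about the members is read from that count. With 3 against 2 samples the smallest p of an exact permutation test is 0.1 (0.136 after Benjamini-Hochberg adjustment over the 15 pairs), so no pair could pass.

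**Figure D3:**
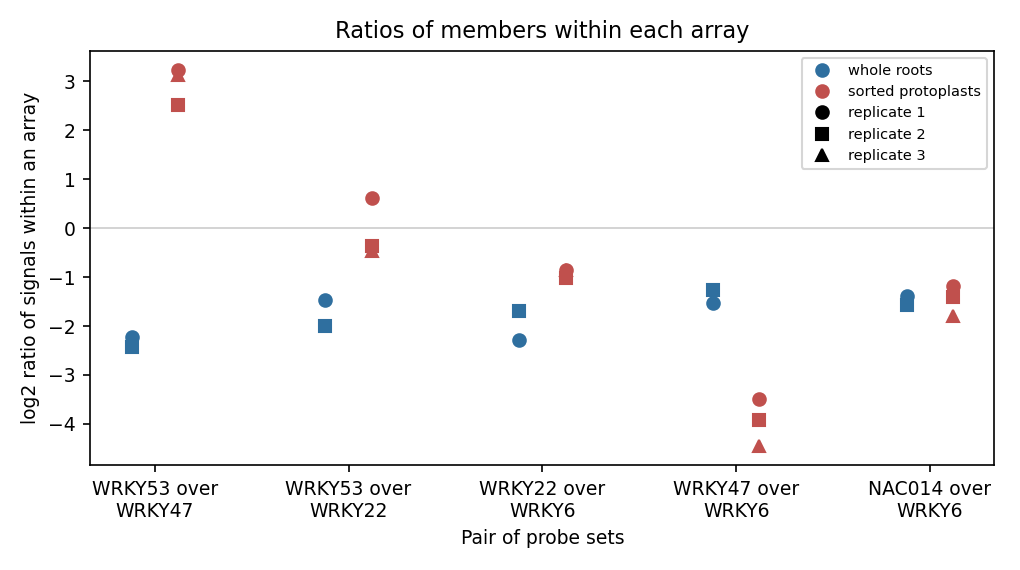
Log2 ratio of 2 members' signals within each array, for 5 pairs of probe sets, in whole roots (blue, n = 2) and sorted protoplasts (red, n = 3), with symbols for the replicate. The ratio of WRKY53 to WRKY47 lies between -2.44 and -2.22 in whole roots and between 2.52 and 3.24 in sorted protoplasts, while the ratios of NAC014 to WRKY6 overlap.

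Genes around WRKY and NAC factors were taken from 9 lists of 102 genes, of which the annotation named 6, and 5 lists had no named gene. These 5 were the kinase cascade above WRKY factors, the VQ proteins that bind them, salicylic acid genes, drought and hormone targets of NAC factors, and NAC genes under other names. Of 9 genes known as targets of NAC017 and NAC013 under mitochondrial stress, 3 were named and tested. Of these 2 were higher and 1 did not pass, with a median log2 fold change of 1.26 against 0.15 over all tested probe sets. Of all tested probe sets 60.6% were called and 34.1% were called higher, and 3 genes are too few to set apart from those shares. The remaining one, AT2G21640 (0.70, adjusted p = 0.178), passed without whole-root replicate 1 (1.46, adjusted p = 0.0139), with the replicate block (0.86, adjusted p = 0.0371) and after removal of the length trend (1.29, adjusted p = 0.0307). Without whole-root replicate 2 its sign turned (-0.06, adjusted p = 0.893), so its value rests on which whole-root sample is kept. AT5G09570 went from 150 and 77.3 in whole roots to 871, 1332 and 1470 in sorted protoplasts (log2 fold change 3.47, limma adjusted p = 8.71e-05). NDB2, an alternative NADH dehydrogenase of mitochondria, had a log2 fold change of 1.26 (limma adjusted p = 1.69e-04). Tested against a log2 change of 1, NDB2 did not pass (limma adjusted p = 0.228). NAC017 and NAC013 themselves are not among the members. BIK1, a kinase of pattern-triggered immunity and the 1 named of 9 genes on that list, was lower (log2 fold change -0.55, limma adjusted p = 0.0148). That call was lost with median centring (-0.31, adjusted p = 0.115), with the replicate block (adjusted p = 0.0948), and without sorted replicate 3 (0.0635), whole-root replicate 1 (0.113) or whole-root replicate 2 (0.0510). For BIK1 the replicate block and the omission of sorted replicate 3 gave the same log2 fold change, -0.49. BIK1 also did not pass when tested against a log2 change of 1. GUT2, the 1 named of 22 secondary wall and xylem targets of NAC factors, did not pass (0.31, limma adjusted p = 0.421).

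The genes next to the members on the chromosome were read as well, to see whether neighbours moved with them. Of the 14 next protein-coding genes, 10 were named by the annotation and 8 were tested, of which 4 were higher, 2 lower and 2 not past the threshold. With 6 of 8 called, the share lies near the background of 60.6%. WRKY53 and its neighbour AT4G23800 went opposite ways, the neighbour having a log2 fold change of -1.33 (limma adjusted p = 0.00314). WRKY22 and AT4G01240 (2.11, limma adjusted p = 5.28e-04) both rose, and WRKY47 and AT4G01710 (-1.34, limma adjusted p = 9.77e-04) both fell. AT4G01730, on the other side of WRKY47, overlapped between the groups and did not pass (-0.52, limma adjusted p = 0.283). Tested against a log2 change of 1, AT4G23800 (limma adjusted p = 0.496) and AT4G01710 (0.327) did not pass, and nor did AT4G26650, given below. Beside the dim WRKY42, AT4G04460 rose from 82.7 ± 7.32 (SD, n = 2) to 703 ± 283 (SD, n = 3). Beside WRKY6, AT1G62290 rose by 2.61 on the log2 scale (limma adjusted p = 2.22e-04). It passed the filter only through its sorted signal, which was 2.86-fold above the bound, so the size of that rise is imprecise. Beside WRKY20, AT4G26650 was higher (0.69, limma adjusted p = 0.00832), a call lost after removal of the length trend (adjusted p = 0.118) and without whole-root replicate 1 (adjusted p = 0.0854). AT4G23820, beside WRKY53, did not pass but did so with median centring (0.69, adjusted p = 0.0336) and quantile normalization (0.78, adjusted p = 0.0191). Both neighbours of NAC014, AT1G33055 and AT1G33070, were left out by the filter. Without it AT1G33055 was called lower (-2.03, limma adjusted p = 0.00727) and AT1G33070 was not called (limma adjusted p = 0.208).

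**Figure D4:**
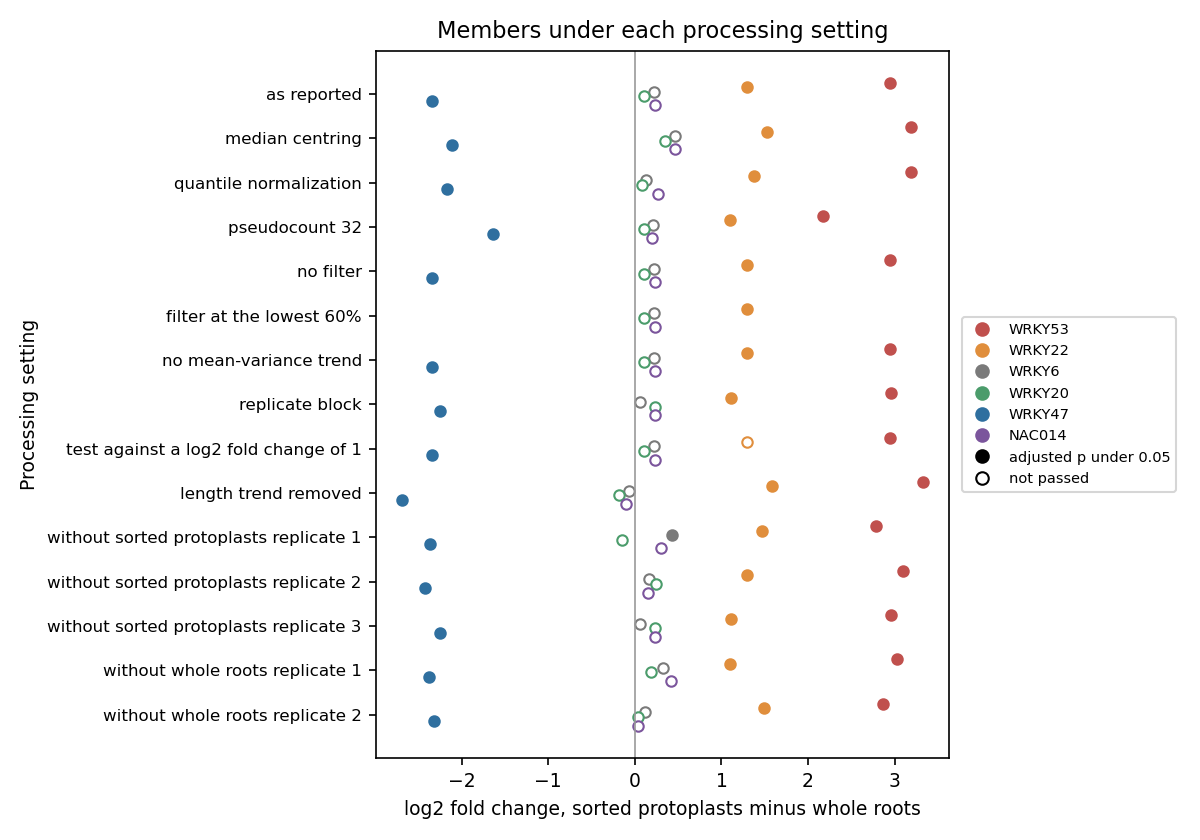
Log2 fold change (sorted protoplasts minus whole roots) of the 6 tested members under each processing setting, with filled points where the adjusted p was under 0.05. WRKY53, WRKY22 and WRKY47 keep their sides of 0 in each setting where they were tested, WRKY22 is not past the threshold when tested against a log2 change of 1, and WRKY53 and WRKY47 have no point at the 60% filter, which removes them.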

How the data were processed

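The authors deposited intensity values, a linear signal for each probe set on each array. MAS5 is named in the submitters' processing notes; detection calls and the software version are not given in the sources used here. Values were used as log2 and not normalized again. The 64 control probe sets and the 40% of others with the lowest mean log2 (bound 43.3) were left out, and the group was the only factor in limma 3.58.1 (R 4.3.3; lmFit, eBayes with a mean-variance trend, Benjamini-Hochberg adjustment over 13647 probe sets). Dim means under that bound in both groups. Symbols came from the platform annotation (13513 probe sets with 1 symbol, 503 with several, 8730 with none), and all 7 members matched the RefSeq gene table (TAIR10.1) by gene ID, which gave lengths and neighbours. The build behind the probe sets is not given, so no coordinates are printed.

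Members, lists and tests were chosen with earlier results of these data known. All members are named; signals of different probe sets were not ranked, and of partner lists up to 2 genes with the largest change were named. Neighbours and bZIP genes were added after the annotation was read. Alternatives were 2 normalizations (quantile, or centring on the median), a pseudocount of 32, the filter at 60% or absent, a constant prior variance, a replicate block, a threshold of 1 on the log2 change, removal of the length trend (loess), and omission of each sample. The test was tried on simulated data that held far fewer changed probe sets than were called here, so that trial does not check these calls. Correlations of the deviations of same-numbered samples were -0.008 and -0.006. The deviations of the whole-root samples mirror each other, so these values cannot show whether the numbers pair the samples. Samples were treated as unpaired in the reported fit. For each probe set, the replicate block and the omission of sorted replicate 3 give the same fold change, since only the sorted group has that replicate.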

Additional observations from a re-analysis of the deposited data

How the results depend on the processing

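WRKY53 and WRKY47 passed under each of the 13 alternatives in which they were tested, with log2 fold changes from 2.17 to 3.33 and from -2.68 to -1.64, and WRKY22 passed under 13 of 14 (1.09 to 1.58), the exception being the test against a change of 1. With the 60% filter 1 WRKY probe set was higher and 0 lower, because WRKY53 and WRKY47 were removed. With the test against a change of 1, 1 was higher, and with no filter 2 were lower. With the replicate block 2 WRKY probe sets were higher and 1 lower, as reported, and NAC014 had 0.24 (adjusted p = 0.494). Leaving out 1 sample gave 2 to 3 WRKY probe sets higher and 1 lower. With 1 whole-root sample left, it is assumed to vary like the sorted ones. The third was WRKY6 without sorted replicate 1, where 5209 of all tested probe sets were called higher. The WRKY median was 0.46 with median centring, -0.067 with the length trend removed and 0.12 to 0.43 on leaving out 1 sample. The value for NAC014 was 0.47 with median centring, -0.10 with the length trend removed and 0.04 to 0.42 on leaving out 1 sample. Signs turned for WRKY20 (-0.19 with the length trend removed, -0.15 without sorted replicate 1), WRKY6 (-0.067) and NAC014 (-0.10), none of them past the threshold. Over all probe sets 4649 were higher and 3623 lower. Tested against a change of 1, 735 were higher and 1149 lower, and 2223 were lower with the 60% filter, which tests fewer. Other counts stayed within 1.5 times. Signal near the bound limits WRKY42, and the whole-root side of WRKY53 and sorted side of WRKY47.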

Other observations

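Among other transcription factors that the annotation names by number, 7 bZIP genes were read, chosen after the annotation was seen. Of 5 tested, 2 were higher in sorted protoplasts and 0 lower, against 60.6% called over all tested probe sets. BZIP28, a membrane-held factor of the unfolded protein response, had 887, 897 and 820 in sorted protoplasts against 464 and 503 in whole roots (log2 fold change 0.84, limma adjusted p = 0.00124). BZIP60, which acts in the same response, had 988, 878 and 926 against 711 and 699 (0.40, limma adjusted p = 0.0331). The BZIP60 call was lost with quantile normalization (adjusted p = 0.0775), with no mean-variance trend (0.0588), with the replicate block (0.137) and without any 1 sample other than sorted replicate 1 (0.0605 to 0.140). BZIP17 passed with median centring (0.59, adjusted p = 0.0350) and without sorted replicate 1 (0.45, adjusted p = 0.0314), and BZIP53 after removal of the length trend (0.68, adjusted p = 0.00614). In BZIP28, BZIP60 and BZIP17 each sorted sample lay above each whole-root sample. Over all tested probe sets the groups did not overlap at 75.8%, so this separation is common. Tested against a log2 change of 1, BZIP28 and BZIP60 did not pass. As reported here, BZIP17, BZIP53 and BZIP61 did not pass, with log2 fold changes between -0.02 and 0.35. BZIP24 and BZIP34 were dim in both groups.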
